A study of Mus musculus with 27 samples.

Results

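The genes described here are 9 mouse genes of selenium biology, chosen by symbol from the 52550 genes of the count table. They are the glutathione peroxidases Gpx1, Gpx2, Gpx3 and Gpx4, the selenium carrier Selenop, the small selenoproteins Selenow and Selenoh, the selenophosphate synthetase Sephs2 and the selenium-binding protein Selenbp1. Their Ensembl identifiers were matched to symbols, and all 9 passed the filter on low counts in every comparison. The rule that picks them uses symbols and no measured value, although the list was proposed with earlier results of these data known.

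Selenoproteins carry selenium as selenocysteine, an amino acid inserted at a UGA codon that would otherwise end translation. Insertion needs a hairpin in the 3′ untranslated region of the mRNA, a dedicated tRNA and selenophosphate, the selenium donor that SEPHS2 makes. Most known selenoproteins are redox enzymes with selenocysteine in the active site, and the mRNAs of several of them, Gpx1 and Selenow among them, are known to fall when selenium is scarce. Selenium and arsenic are known to counteract each other in mammals, partly through a compound of arsenic, selenium and glutathione that is excreted in bile.

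The in-frame TGA is what sets 8 of these genes apart from Selenbp1, so it is shown here with the 15 bases on each side. The coding sequences come from GENCODE M21 on build GRCm38, matched by gene identifier, with TGA in capitals and each sequence on the coding strand.
Gpx1: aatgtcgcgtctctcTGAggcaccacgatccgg
Gpx2: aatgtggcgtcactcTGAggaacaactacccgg
Gpx3: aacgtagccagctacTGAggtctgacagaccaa
Gpx4: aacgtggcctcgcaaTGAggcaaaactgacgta
Selenow: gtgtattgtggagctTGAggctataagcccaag
Selenoh: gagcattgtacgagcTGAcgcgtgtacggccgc
Sephs2: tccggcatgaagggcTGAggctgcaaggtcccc
Selenop: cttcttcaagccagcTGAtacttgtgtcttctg
All of these triplets are in coding exons. In GRCm38 the codon is at chr9:108339451-108339453 in exon 1 of Gpx1 on the plus strand, where it is codon 47. It is codon 40 at chr12:76795256-76795258 in exon 1 of Gpx2 on the minus strand. Gpx3 carries it as codon 73 at chr11:54907256-54907258 in exon 2, and Gpx4 as codon 73 at chr10:80054737-80054739 in exon 3, both on the plus strand. In Selenow it is codon 13 at chr7:15920464-15920466 in exon 2, and in Selenoh codon 38 at chr2:84670381-84670383 in exon 2, both on the minus strand. Sephs2 has its coding sequence in 1 exon, with the TGA as codon 63 at chr7:127273731-127273733 on the minus strand, so that the enzyme that makes the selenium donor is itself a selenoprotein. Selenop is on the plus strand and has 10 such codons of 380: codon 59, shown above, is at chr15:3274848-3274850 in exon 2, and the other 9 are between codons 259 and 377 in exon 5. Selenbp1, at chr3:94933056-94944758 on the plus strand, has 472 codons and no selenocysteine codon. Over the aligned coding sequences Gpx1 and Gpx2 were the closest pair of the 4 peroxidases, at 63.97% identity, against 43.16 to 51.44% for the other pairs.

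Poly-A RNA was sequenced from the colon, cecum and ileum of male C57BL/6 mice, which entered a 7-day acclimation at 6 weeks of age. Mice of the arsenic group then ate standard feed blended with arsenic to 30 ug/g for 60 days, of which sodium arsenite supplied 72.7%, DMA 19.0%, sodium arsenate 7.3% and MMA 1.0% (DMA and MMA are methylated arsenic species). Control mice ate the standard feed. The arsenic groups were colon (n = 4), cecum (n = 5) and ileum (n = 5), and the control groups were colon (n = 5), cecum (n = 4) and ileum (n = 4), from 10 mice per diet. Libraries are called by the numbers of their labels, 11 to 15 on arsenic and 1 to 5 on control feed. The labels do not say that equal numbers mark the same mouse, and p-values measure only the spread between libraries.

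The 27 libraries held 15717600 to 18208518 counts, and levels are given as CPM, the count divided by the TMM-scaled library total. Markers of ileal enterocytes summed to 3049.8 to 10512 CPM in ileum libraries and to 40.3 to 817 CPM elsewhere, and markers of large intestinal epithelium to 13922 to 43173 CPM in colon and cecum and 1921 to 3424 CPM in ileum, as the labels have it. In cecum, arsenic and control libraries differed in marker and clock lists as well as diet. The large intestinal epithelium list summed to 29753 to 34757 CPM on arsenic and 34897 to 43173 CPM on control feed, with 5 of 7 tested genes lower. The smooth muscle list summed to 3264 to 5338 CPM on arsenic and 2827 to 3834 CPM on control feed, with 4 of 8 genes higher. Higher calls were also made for 4 of 8 fibroblast, 4 of 6 T cell, 2 of 6 endothelium and 2 of 7 ileal enterocyte genes. The general epithelium list had 3 of 8 genes lower. The Paneth list had 1 of 3 higher, and the stem and crypt list 1 of 7 and the macrophage list 1 of 8 lower. Of all genes tested there, 25.2% were called. Genes of the evening arm of the circadian clock summed to 498 to 673 CPM on arsenic and 342 to 467 CPM on control feed there, with 7 of 10 higher. The morning arm summed to 109 to 119.6 CPM on arsenic and 147 to 181 CPM on control feed, with 4 of 4 lower. No gene of these lists was at 0 in every library. The colon library control 1 had a mean correlation of 0.985 with the rest of its group, against 0.988 to 0.992 for the other colon controls. Its Paneth cell markers summed to 15.4 CPM, against 178 to 1257 CPM in the other colon controls. Its large intestinal epithelium list summed to 23140 CPM, against 15257 to 18121 CPM in them. In ileum, Fabp6, the bile acid carrier of ileal enterocytes, had 6.13 CPM in arsenic 14 and 1.33 CPM in arsenic 15, against 981 to 4176 CPM in the other 3 arsenic libraries and 218 to 4268 CPM in the 4 controls. In whole tissue, fewer cells of a type and less RNA per cell cannot be told apart.

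Per length of transcript, Selenop and Selenbp1 were the most abundant of the 9 mRNAs. On the scale of CPM per kb, Selenop reached 1766 in arsenic ileum and 1988 in control ileum. Selenbp1 led in the large intestine, with 1587 CPM per kb in arsenic cecum, 1703 in control cecum, 861 in arsenic colon and 936 in control colon. In ileum Selenbp1 had 45.9 CPM per kb on arsenic and 37.3 on control feed and ranked eighth of the 9 genes. Selenoh, a nucleolar protein with a thioredoxin-like fold, was lowest in all 6 groups, at 9.32 to 21.5 CPM per kb. Gpx1, the ubiquitous cytosolic peroxidase, kept to 187 to 350.1 CPM per kb across the groups. Gpx2, the peroxidase of the gut epithelium, ran between 98.1 CPM per kb in arsenic colon and 776 in control ileum.

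**Figure D1:**
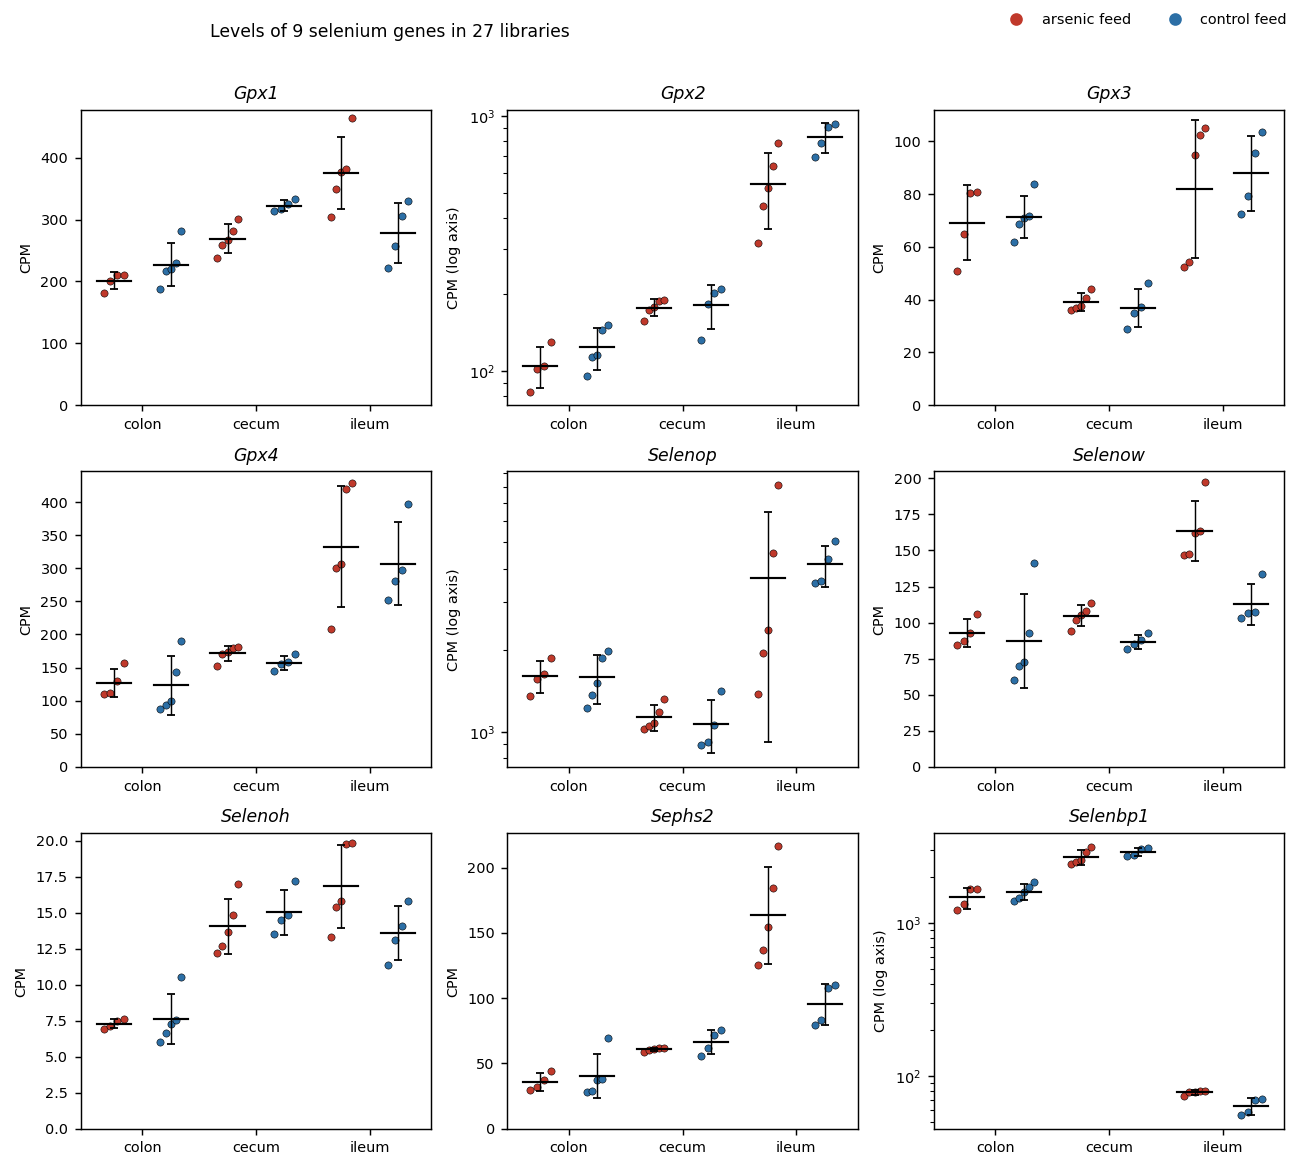
Levels of the 9 genes in each library (CPM, from 0 on a linear axis except for Gpx2, Selenop and Selenbp1, which are on log axes), by region and diet, with arsenic libraries in red left of control libraries in blue. Points are libraries, in order of value within a group, bars are means and whiskers SD (n = 4 or 5). Sephs2 and Selenow on arsenic stand above control in ileum, and Selenbp1 lies between 55.6 and 80.8 CPM in ileum and between 1219 and 3155 CPM in colon and cecum.

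The first question was what arsenic feed did to these genes in the ileum. In the fit of the ileum libraries Sephs2 and Selenow rose, no member was called lower, and the other 7 did not pass the test. Sephs2, the synthetase that supplies selenium for selenocysteine, showed the largest change of the 9. It had 137, 185, 125, 155 and 217 CPM in arsenic libraries 11 to 15, against 108, 83.6, 79.8 and 110.0 CPM in control libraries 1, 2, 3 and 5. Every arsenic library was above every control library. The means were 164 ± 37.1 CPM on arsenic (SD, n = 5) and 95.3 ± 15.8 CPM on control feed (SD, n = 4). The log2 fold change was 0.74 ± 0.17 (SE, edgeR adjusted p = 0.0317).

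Selenow, a small cytosolic selenoprotein known for its abundance in muscle and its sensitivity to selenium supply, had 147, 198, 148, 164 and 162 CPM in arsenic ileum. Control ileum had 134, 107, 106 and 103 CPM. The groups did not overlap, although control 1 came within reach of the lowest arsenic library. Its log2 fold change was 0.50 ± 0.12 (edgeR adjusted p = 0.0373). Selenbp1, a methanethiol oxidase that binds selenium without holding selenocysteine, had 74.2 to 80.8 CPM in the 5 arsenic libraries and 55.6 to 71.2 CPM in the 4 control libraries, again without overlap. Its log2 fold change of 0.26 ± 0.10 did not pass (edgeR adjusted p = 0.12).

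Among the peroxidases in ileum, Gpx1 had 304, 377, 349.8, 464 and 382 CPM on arsenic and 330.4, 257, 223 and 306 CPM on control feed. Control 1 exceeded arsenic 11, and the log2 fold change of 0.39 ± 0.16 did not pass (edgeR adjusted p = 0.153). Gpx2 pointed the other way, with 442, 521, 636, 782 and 318 CPM on arsenic against 693, 933, 906 and 782 CPM on control feed. Only arsenic 14 reached the control range, and the log2 fold change of -0.65 ± 0.23 did not pass either (edgeR adjusted p = 0.112). Gpx4, which reduces lipid peroxides in membranes, changed by 0.07 ± 0.21 and Gpx3, the secreted peroxidase of plasma, by -0.14 ± 0.24 on the log2 scale. Both left a wide interval, since 2 SE on each side ran from -0.35 to 0.50 for Gpx4 and from -0.61 to 0.33 for Gpx3. Without arsenic 14 and 15 the log2 fold changes were 0.02 for Gpx4 and -0.01 for Gpx3. Selenoh stood at 0.27 ± 0.15 (log2, edgeR adjusted p = 0.303).

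Selenop, the secreted protein that delivers selenium to other tissues, was the most scattered member in arsenic ileum. It had 1947, 4554, 2382, 1383 and 8145 CPM on arsenic, against 5069, 3545, 4356 and 3609 CPM on control feed. Of the arsenic libraries, 3 were below the whole control range, 1 was within it and 1 above it. The coefficient of variation was 75.2% on arsenic and 17.3% on control feed. The log2 fold change of -0.22 ± 0.46 did not pass (edgeR adjusted p = 0.815). Its size turned on single libraries, since it ran from -0.70 without arsenic 15 to -0.01 without arsenic 14, was -0.49 without both, and did not pass in any of these fits (edgeR adjusted p = 0.207, 0.989 and 0.337).

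In all, 2 of 9 members were called higher and 0 lower in ileum. At an unadjusted p under 0.05 there were 5 members, and 4076 of the 16305 genes tested. Of all genes tested there, 7.3% were called (4.02% higher and 3.28% lower), and the groups did not overlap for 13.4% of them and for 3 of the 9 members. The median log2 fold change was 0.26 over the members and -0.0022 over all genes. Both calls were close to the threshold, and neither held without arsenic 14 and 15 together, where the log2 fold change was 0.54 for Selenow and 0.64 for Sephs2 (edgeR adjusted p = 0.0654 and 0.0644). Without arsenic 12, 13 or 14 or control 2, 3 or 5, Selenow had edgeR adjusted p = 0.060, 0.0502, 0.0711, 0.128, 0.102 and 0.0784 in that order. Without arsenic 12 or 14 or control 1, 2 or 3, Sephs2 had edgeR adjusted p = 0.0631, 0.057, 0.0589, 0.115 and 0.0943 in that order. The morning arm of the clock, 4 genes of which 2 were lower, summed to 90.4 to 122 CPM on arsenic and 136 to 161 CPM on control feed in ileum. The evening arm overlapped there, at 463 to 952 CPM on arsenic and 425 to 600 CPM on control feed, with 0 of 10 called. With the clock score as a covariate the log2 difference was 0.26 for Selenow and 0.21 for Sephs2 (edgeR adjusted p = 0.509 and 0.633). That score was -1.60 to -0.40 on arsenic and -0.59 to 0.27 on control feed in ileum, with overlap only through arsenic 13. The smooth muscle list summed to 3715 to 4141 CPM on arsenic and 3646 to 6970 CPM on control feed in ileum, highest in controls 1 and 2, and 0 of its 8 genes were called. With the smooth muscle score as a covariate the log2 difference was 0.63 for Selenow and 0.72 for Sephs2, and neither passed (edgeR adjusted p = 0.0866 and 0.165). With the epithelium score Sephs2 was at 0.72 and lost its call (edgeR adjusted p = 0.0647). Paneth cell markers summed to 3659 to 10643 CPM on arsenic and 8713 to 15330 CPM on control feed, with 0 of 6 called, and their part in these results was not tested. With all 27 libraries in 1 fit, 4 members were called in ileum, 3 higher and 1 lower. That fit called 2889 of all genes there (1844 higher and 1045 lower).

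In the cecum, Selenow rose and Gpx1 fell on arsenic. Selenow had 114, 105, 94.2, 108 and 102 CPM in arsenic libraries 11 to 15, against 93.1, 87.6, 85.2 and 81.4 CPM in control libraries 1, 2, 4 and 5. All arsenic libraries were above all controls, by a narrow gap. The log2 fold change was 0.31 ± 0.06 (edgeR adjusted p = 0.00331), and the call held in each of the 9 fits with 1 library left out.

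Gpx1 had 282, 266, 238, 259 and 300.4 CPM in arsenic cecum and 325, 318, 314 and 333 CPM in control cecum. Here the arsenic libraries were all below the controls, the reverse of the order of the ileum means. The log2 fold change was -0.22 ± 0.06 (edgeR adjusted p = 0.0209). Without arsenic 13 or 14 or control 5 it had edgeR adjusted p = 0.0538, 0.0528 and 0.0625.

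The other peroxidases of the cecum did not pass. Gpx4 had 153 to 181 CPM on arsenic and 145 to 170.0 CPM on control feed, and its log2 fold change was 0.17 ± 0.06 (edgeR adjusted p = 0.0712). It was called higher without arsenic 12 or control 4 (edgeR adjusted p = 0.0247 and 0.0395). Gpx2 had 156 to 190.1 CPM on arsenic and 132 to 210.1 CPM on control feed, a log2 difference of 0.00 ± 0.12, with 2 SE on each side from -0.24 to 0.24. Gpx3 changed by 0.12 ± 0.12 and Selenop by 0.11 ± 0.13 on the log2 scale, and Selenop was called higher without control 4 (edgeR adjusted p = 0.034). Sephs2, raised in the ileum, had 58.6 to 62.2 CPM on arsenic and 55.7 to 75.6 CPM on control feed in the cecum. Its arsenic libraries had a coefficient of variation of 2.43%, and its log2 fold change was -0.08 ± 0.08 (edgeR adjusted p = 0.477). Selenoh and Selenbp1 changed by -0.06 ± 0.11 and -0.06 ± 0.08.

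The cecum thus gave 1 member higher and 1 lower, against 25.2% of all genes tested called there (11.3% higher and 13.9% lower). At an unadjusted p under 0.05 there were 3 members, and 5994 of the 15590 genes tested. The groups did not overlap for the 2 called members and for 22.2% of all genes. Neither call held under every scaling, covariate and fit. The TMM factors over all 27 libraries, used for CPM, were 0.903 to 0.985 on arsenic and 0.852 to 0.884 on control feed in cecum. The cecum test used its own factors over the cecum libraries. With upper-quartile scaling in that test Gpx1 changed by -0.17 (edgeR adjusted p = 0.0607). With the epithelium score as a covariate the log2 difference was 0.15 for Gpx1 and 0.39 for Selenow (edgeR adjusted p = 0.907 and 0.741). With the clock score it was -0.20 and 0.62 (edgeR adjusted p = 0.743 and 0.243), and in 1 fit of all 27 libraries -0.26 and 0.27 (edgeR adjusted p = 0.166 and 0.307). In cecum the clock score was -1.04 to -0.59 on arsenic and 0.013 to 0.80 on control feed. The epithelium score was 10.28 to 10.46 on arsenic and 10.60 to 10.64 on control feed. Neither score overlapped between the diets, so diet and score cannot be told apart in these covariate fits.

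In the colon no member passed, and none had an unadjusted p under 0.05, against 2405 of the 16492 genes tested. DESeq2 and limma voom with sample quality weights also called 0 of the 9, and 0.649% of all genes were called by edgeR (0.364% higher and 0.285% lower). Selenow had 87.5, 106, 84.8 and 93.0 CPM in arsenic libraries 11, 12, 13 and 15, against 141, 92.7, 69.8, 60.0 and 72.8 CPM in control libraries 1 to 5. The control libraries covered the whole arsenic range because of control 1 and fell mostly below it otherwise. The log2 fold change was 0.10 ± 0.23 (edgeR adjusted p = 0.911), and 0.34 without control 1 (edgeR adjusted p = 0.191). Sephs2 had 31.6, 44.5, 29.8 and 37.4 CPM on arsenic and 69.3, 38.1, 28.5, 28.6 and 37.5 CPM on control feed. Control 1 was again the highest library, and the log2 fold change was -0.17 ± 0.27, and 0.12 without it (edgeR adjusted p = 0.85 and 0.711). Gpx4 was highest in the same library, at 191 CPM, and changed by 0.06 ± 0.24 with it and 0.27 without it. The remaining log2 fold changes were between -0.24 ± 0.16 for Gpx2 and 0.02 ± 0.16 for Selenop. The groups did not overlap for 7.83% of all genes and for none of the members.

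**Figure D2:**
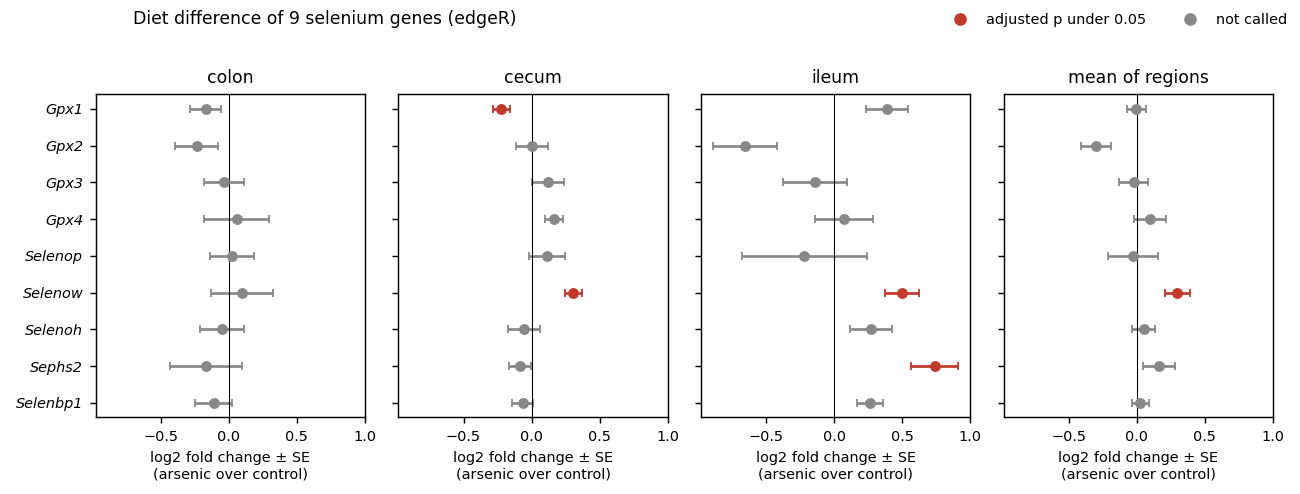
Log2 fold change of arsenic over control (points) with 1 SE on each side (whiskers) for each gene in colon, cecum and ileum and for the mean of the 3 regions, from edgeR. Red points had an adjusted p under 0.05 over all genes tested: Gpx1 and Selenow in cecum, Selenow and Sephs2 in ileum, and Selenow in the mean.

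The diet difference averaged over the 3 regions was called for 1 member, Selenow, which was higher, against 19.7% of all genes (9.53% higher and 10.2% lower). Its averaged log2 fold change was 0.30 ± 0.09 (edgeR adjusted p = 0.0238), and with 1 of the 27 libraries left out the edgeR adjusted p was 0.000124 to 0.049. Gpx2 averaged -0.30 ± 0.11 (edgeR adjusted p = 0.0562) and was called lower without cecum control 4, colon arsenic 13, colon control 5, ileum arsenic 13 or 14 or ileum control 1 (edgeR adjusted p = 0.0138 to 0.0464). Sephs2 averaged 0.16 ± 0.12 (edgeR adjusted p = 0.365) and was called higher without colon control 1 (edgeR adjusted p = 0.035). Without ileum arsenic 14 and 15, Selenow averaged 0.30 and stayed called, and Gpx2 averaged -0.31 and was called lower too (edgeR adjusted p = 0.0363 and 0.0184). Gpx1 averaged -0.0028 ± 0.07, with a positive value in ileum and negative ones in cecum and colon.

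Whether the diet difference itself differed between regions was tested as an interaction. The diet difference was lower in cecum than in ileum for Gpx1, with a log2 difference of -0.69 ± 0.17 (edgeR adjusted p = 0.00979), and for Sephs2, with -0.90 ± 0.28 (edgeR adjusted p = 0.0395). These were 2 of 9 members, both lower, against 11.4% of all genes (2.88% higher and 8.49% lower). Selenbp1 at -0.40 ± 0.16 and Gpx2 at 0.58 ± 0.27 did not pass in that contrast (edgeR adjusted p = 0.0976 and 0.165). The Gpx1 call held with each of the 27 libraries left out in turn, and without ileum arsenic 14 and 15 together it was -0.56 (edgeR adjusted p = 0.038), while Sephs2 was then -0.77 and not called (edgeR adjusted p = 0.115). The Sephs2 call was lost without any of the 5 cecum arsenic libraries, cecum control 1, 2 or 5, colon control 5, ileum arsenic 12 or 15, or ileum control 2 or 3 (edgeR adjusted p = 0.0507 to 0.117). Between colon and ileum the same genes differed by -0.61 ± 0.17 for Gpx1 and -0.95 ± 0.29 for Sephs2 without passing (edgeR adjusted p = 0.0576 and 0.0739), and 2.25% of all genes were called (0.512% higher and 1.73% lower). Gpx1 was called there without ileum arsenic 11 or ileum control 5 (edgeR adjusted p = 0.0201 and 0.046), and Sephs2 without colon control 3 or 4 or ileum arsenic 11 (edgeR adjusted p = 0.0438, 0.0419 and 0.0451). For that contrast 3 members, Selenbp1 at -0.42 ± 0.16 among them, had an unadjusted p under 0.05, against 3098 of the 17763 genes tested. DESeq2 called 2 members and limma voom with sample quality weights 2. Between colon and cecum edgeR called 0 members and 0% of all genes. At an unadjusted p under 0.05 there were 0 members, and 1294 of the 17763 genes tested. DESeq2 and limma voom with sample quality weights called 0 members too. For Selenow, the interaction estimates were -0.27 ± 0.23 for cecum minus ileum, -0.45 ± 0.23 for colon minus ileum and -0.18 ± 0.23 for colon minus cecum, none of which passed, so the rise in ileum and cecum is not shown to differ from the colon value. Without colon control 1 the estimate was -0.21 for colon minus ileum and 0.06 for colon minus cecum, a change of sign (edgeR adjusted p = 0.562 and 0.919).

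How the genes vary along the gut was asked within the control mice. The peroxidases split. Gpx2 was lower in cecum and colon than in ileum: it had 202, 183, 132 and 210.1 CPM in the 4 cecum libraries and 693, 933, 906 and 782 CPM in the 4 ileum libraries. No cecum library came near the ileum range, and the log2 fold change of cecum over ileum was -2.20 ± 0.17 (edgeR adjusted p = 1.42e-07). Colon had 151, 114, 116, 145 and 95.1 CPM of Gpx2, a log2 fold change of -2.74 ± 0.16 over ileum (edgeR adjusted p = 1.04e-08). Colon was also lower than cecum, by -0.54 ± 0.16 (edgeR adjusted p = 0.012), with overlapping libraries.

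Gpx4 was lower than ileum in cecum (-0.98 ± 0.22) and in colon (-1.32 ± 0.21, both log2; edgeR adjusted p = 0.00219 and 0.000147). Gpx3 was low in the cecum alone: cecum had 28.9 to 46.4 CPM, colon 62.0 to 83.8 CPM and ileum 72.6 to 104 CPM. Its log2 fold change was -1.26 ± 0.15 for cecum over ileum (edgeR adjusted p = 6.42e-06) and 0.96 ± 0.14 for colon over cecum (edgeR adjusted p = 0.000108). Gpx1 was lower in colon than in cecum by -0.50 ± 0.12 (edgeR adjusted p = 0.00483), and differed by 0.20 ± 0.13 between cecum and ileum (edgeR adjusted p = 0.215). For colon over ileum, Gpx1 and Gpx3 were each at -0.30 (SE 0.12 and 0.14) without passing (edgeR adjusted p = 0.058 and 0.0795). For colon over cecum, Gpx4 was at -0.35 ± 0.21 and did not pass (edgeR adjusted p = 0.193).

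Selenbp1 had the largest regional difference of the 9. It had 2789.5, 2737, 3028 and 3109 CPM in control cecum and 58.1, 55.6, 70.2 and 71.2 CPM in control ileum. The log2 fold change of cecum over ileum was 5.51 ± 0.14 (edgeR adjusted p = 9.97e-12), and that of colon over ileum 4.65 ± 0.13 (edgeR adjusted p = 2.18e-11). Colon, at 1392 to 1854 CPM, was below every cecum library, at -0.86 ± 0.11 on the log2 scale relative to it (edgeR adjusted p = 3.25e-05). Selenop ran the opposite way, with 896 to 1418 CPM in cecum against 3545 to 5069 CPM in ileum, for which the log2 fold change was -1.96 ± 0.19 (edgeR adjusted p = 1.09e-06). Colon Selenop was lower than ileum (-1.38 ± 0.18) and higher than cecum (0.58 ± 0.18; edgeR adjusted p = 1.71e-05 and 0.0158). The difference from cecum was lost without cecum control 2 or 5 (edgeR adjusted p = 0.0561 and 0.0576).

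Selenoh and Sephs2 had their lowest means in the colon, but their values in cecum and ileum differed in pattern. Selenoh had 6.03 to 10.5 CPM in colon, 13.5 to 17.2 CPM in cecum and 11.4 to 15.8 CPM in ileum, with log2 fold changes of -0.98 ± 0.16 for colon over cecum and -0.84 ± 0.16 for colon over ileum (edgeR adjusted p = 0.000194 and 0.000447). Selenoh was at 0.14 ± 0.16 for cecum over ileum (edgeR adjusted p = 0.497). Sephs2 had 79.8 to 110.0 CPM in ileum, 55.7 to 75.6 CPM in cecum and 28.5 to 69.3 CPM in colon. Its difference of -0.54 ± 0.24 for cecum over ileum did not pass (edgeR adjusted p = 0.0797). Sephs2 in colon differed by -0.70 ± 0.23 from cecum and by -1.24 ± 0.23 from ileum (edgeR adjusted p = 0.0239 and 0.000596). The call of Sephs2 for colon over cecum was lost without cecum control 1 or 5 or colon control 2, 3, 4 or 5 (edgeR adjusted p = 0.052 to 0.0648). Selenow was the one member with no regional call: its log2 differences were -0.38 ± 0.21 for cecum over ileum, -0.37 ± 0.20 for colon over ileum and 0.01 ± 0.20 for colon over cecum. Without colon control 1 they were -0.42, -0.63 and -0.21 in that order, and the first 2 passed.

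In counts, cecum against ileum gave 1 member higher and 4 lower, against 54.9% of all genes called (28.4% higher and 26.5% lower). Colon against cecum gave 2 higher and 5 lower, against 47.2% (21.9% higher and 25.3% lower), and colon against ileum 1 higher and 5 lower, against 52.2% (27.7% higher and 24.5% lower). These 3 comparisons share libraries. Leaving out colon control 1 added calls: Selenow and Sephs2 for cecum over ileum (edgeR adjusted p = 0.00852 and 0.00356), Gpx4 for colon over cecum (0.0125), and Gpx1 and Selenow for colon over ileum (0.0060 and 0.000512). Sephs2 for cecum over ileum was also called without colon control 4 (edgeR adjusted p = 0.0495). For colon over ileum, Gpx1 was also called without ileum control 2 or 3 (edgeR adjusted p = 0.0477 and 0.0172) and Gpx3 without colon control 2 or ileum control 2 (edgeR adjusted p = 0.0396 and 0.0333).

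**Figure D3:**
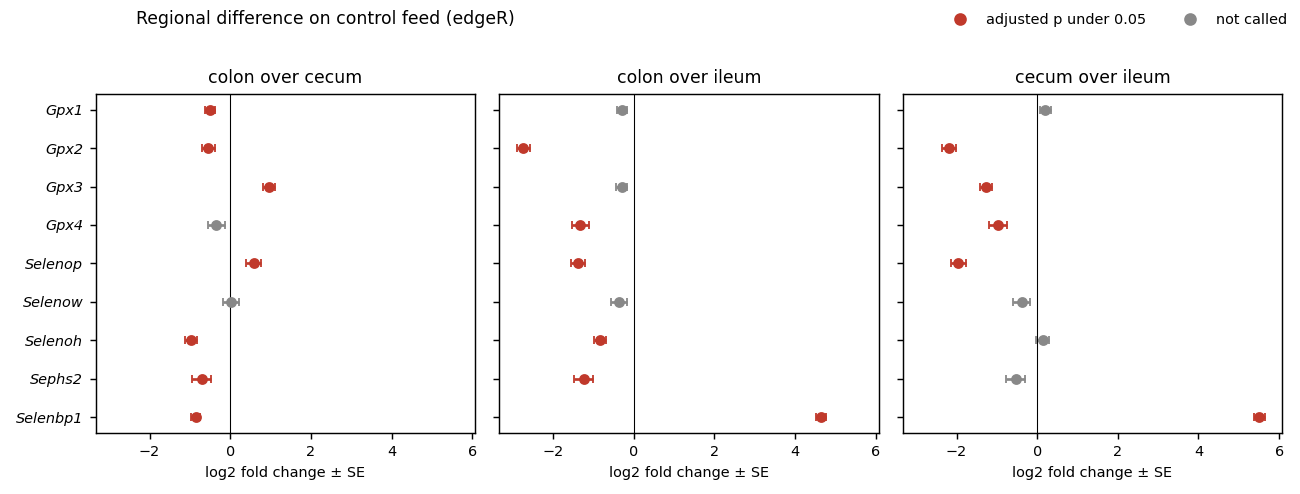
Log2 fold change between regions on control feed (points) with 1 SE on each side (whiskers), from edgeR on the 13 control libraries. Red points had an adjusted p under 0.05; Selenbp1 stands at 5.51 for cecum over ileum and 4.65 for colon over ileum, and Gpx2 at -2.20 and -2.74.

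Ordered by group means, with diet included, most neighbouring groups overlapped. For Gpx2 the order was control ileum, arsenic ileum, control cecum, arsenic cecum, control colon and arsenic colon. The ranges were separate between ileum and cecum, and between arsenic cecum and control colon. For Selenbp1 it was control cecum, arsenic cecum, control colon, arsenic colon, arsenic ileum and control ileum, with overlap only between the diets within cecum and within colon. For Sephs2, arsenic ileum, control ileum and control cecum were separate from one another, and the groups below them overlapped in turn. For Gpx1 every neighbouring pair of groups overlapped, from arsenic ileum at 375 ± 58.4 CPM (n = 5) down to arsenic colon at 201 ± 13.6 CPM (n = 4). For Gpx3 the one gap was between arsenic colon and arsenic cecum. For Gpx4 it was between control ileum and arsenic cecum, and for Selenoh between control ileum and control colon. For Selenow it was between arsenic ileum and control ileum, and Selenop had none.

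The other genes of selenium metabolism were taken as lists. Of 16 other selenoprotein genes, 13 were tested in ileum and 1 passed, Txnrd3, against 7.3% of all genes. It encodes a thioredoxin reductase that also reduces glutathione and is known from the testis. It had 9.21 ± 1.83 CPM in arsenic ileum (n = 5) and 5.12 ± 0.464 CPM in control ileum (n = 4), which gave log2 0.81 ± 0.18 (edgeR adjusted p = 0.0258). Without arsenic 14 or control 1, 2 or 3 it had edgeR adjusted p = 0.0562, 0.0538, 0.0988 and 0.0742, and without arsenic 14 and 15 together 0.074. With the clock score as a covariate it was at 0.34 and with the smooth muscle score at 0.85, and neither passed (edgeR adjusted p = 0.522 and 0.123). The median log2 fold change was -0.13 over the list and -0.0022 over all genes.

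In cecum 5 of 13 other selenoprotein genes passed, 1 higher and 4 lower, against 25.2% of all genes (11.3% higher and 13.9% lower), with a median of -0.02 against 0.02 over all genes. Txnrd3 rose again, to 7.56 ± 0.811 CPM on arsenic, against 4.50 ± 0.485 CPM on control feed (log2 0.78 ± 0.14, edgeR adjusted p = 0.00108). Its cytosolic relative Txnrd1, the reductase of thioredoxin, fell to 243 ± 17.7 CPM on arsenic, against 402 ± 16.9 CPM on control feed (log2 -0.69 ± 0.06, edgeR adjusted p = 5.22e-06). Dio1, a deiodinase that activates thyroid hormone, fell by 0.46 ± 0.08, Selenoi, an ethanolamine phosphotransferase, by 0.34 ± 0.07, and Msrb1, a methionine sulfoxide reductase, by 0.26 ± 0.06, all in log2 units (edgeR adjusted p = 0.000867, 0.00313 and 0.00649). These 5 calls held in each of the 9 fits with 1 library left out. With the clock score or the epithelium score as a covariate none of the 5 passed, and with the epithelium score the log2 difference was -0.63 for Txnrd1, -0.05 for Dio1 and 0.03 for Selenoi (edgeR adjusted p = 0.43, 0.984 and 0.99). As for the members, diet and these scores cannot be told apart in cecum.

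In colon 0 of 14 passed with edgeR. At an unadjusted p under 0.05 there were 5 of this list, and 2405 of the 16492 genes tested. DESeq2 called 2 and limma voom with sample quality weights 1, and edgeR called 1 without control 1. Txnrd3 came nearest, with 9.75 ± 1.05 CPM on arsenic (n = 4) and 6.21 ± 0.812 CPM on control feed (n = 5), which gave log2 0.66 ± 0.13 (edgeR adjusted p = 0.0627). Averaged over regions, 7 of 14 were called, 1 higher and 6 lower, against 19.7% of all genes (9.53% higher and 10.2% lower). Txnrd3 averaged 0.75 ± 0.08 (edgeR adjusted p = 5.66e-07), and Selenot, a selenoprotein of the endoplasmic reticulum, -0.18 ± 0.04 (edgeR adjusted p = 0.00183). The others called lower were Dio1, Txnrd1, Msrb1, Selenoi and Selenok. Of the 27 fits with 1 library left out, Selenok lost its call in 9 and Txnrd1 in 1.

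Of the 13 genes that insert selenocysteine or deliver selenium, 1 rose in ileum and 3 in cecum, and none fell, against 7.3% of all genes called in ileum and 25.2% in cecum. In ileum it was Eefsec, the elongation factor that brings selenocysteyl-tRNA to the ribosome, with 12.8 ± 2.44 CPM on arsenic and 6.93 ± 0.258 CPM in controls (log2 0.85 ± 0.16, edgeR adjusted p = 0.0145). Without control 2 or 3 it had edgeR adjusted p = 0.0634 and 0.0533, and without arsenic 14 and 15 together 0.0432. It was not called with the clock or smooth muscle score as a covariate (log2 1.05 and 0.83, edgeR adjusted p = 0.186 and 0.106). In cecum Eefsec had 10.2 ± 0.987 CPM in arsenic libraries, close to the 11.1 ± 1.14 CPM of the controls (edgeR adjusted p = 0.593). The cecum genes were Secisbp2, which binds the hairpin of selenoprotein mRNAs (log2 0.32 ± 0.09), Trnau1ap, a protein associated with the selenocysteine tRNA (0.25 ± 0.09), and Inmt, a methyltransferase that makes trimethylselenonium for excretion (0.80 ± 0.20; edgeR adjusted p = 0.0157, 0.046 and 0.0125). Secisbp2 had edgeR adjusted p = 0.0522 and 0.0502 without control 1 or 2, and Trnau1ap held only when arsenic 11 or arsenic 12 was the library left out. None of the 3 cecum calls held with the clock score, the epithelium score or the fit of all 27 libraries, where the edgeR adjusted p was 0.778, 0.826 and 0.231 for Trnau1ap, 0.958, 0.984 and 0.0573 for Secisbp2 and 0.837, 0.328 and 0.215 for Inmt, in that order. Diet and either score cannot be told apart in cecum. In colon 0 passed with edgeR. At an unadjusted p under 0.05 there were 3 of this list, and 2405 of the 16492 genes tested. DESeq2 called 1 and limma voom with sample quality weights 2. Averaged over regions 6 of 13 were called, all higher, against 19.7% of all genes (9.53% higher). The count fell to 2 without a filter on low counts. With 1 library left out it was 3 to 6, and 3 without cecum arsenic 15, cecum control 1 or 4, colon arsenic 12, colon control 5, ileum arsenic 14 or ileum control 2. Of the 27 such fits, Eefsec lost its call in 16, Inmt in 16 and Trnau1ap in 20. Secisbp2 averaged 0.24 ± 0.05 and Pstk, the kinase that primes the tRNA for selenocysteine, 0.28 ± 0.07 (edgeR adjusted p = 0.00223 and 0.00416). Sephs1 was also called higher, at 0.13 to 0.17 in the fits with 1 library left out. The median averaged change was 0.15 over this list and 0.02 over all genes.

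Of 21 genes of the glutathione and thioredoxin systems, 19 were tested in each region, and 1 was called in ileum and 3 in cecum, against 7.3% and 25.2% of all genes. Gpx7, a peroxidase of the endoplasmic reticulum with cysteine in place of selenocysteine, fell in ileum to 3.66 ± 0.767 CPM on arsenic, against 9.95 ± 1.32 CPM on control feed (log2 -1.48 ± 0.18, edgeR adjusted p = 0.00357). This call held in each of the 9 fits with 1 library left out, and was lost with the clock score as a covariate, at -1.14 (edgeR adjusted p = 0.192). In cecum 3 peroxiredoxin and glutaredoxin genes fell and none rose: Prdx6 by 0.39 ± 0.11, Glrx by 0.20 ± 0.07 and Prdx5 by 0.20 ± 0.06, in log2 units (edgeR adjusted p = 0.0219, 0.049 and 0.0248). Prdx6 lost its call without arsenic 12 or control 1 or 4, Prdx5 without arsenic 12 or 13 or control 2, 4 or 5, and Glrx held only when arsenic 15 was left out. Their highest edgeR adjusted p in these fits was 0.0608 for Prdx6, 0.064 for Prdx5 and 0.112 for Glrx. None of the 3 was called with the clock, epithelium or smooth muscle score as a covariate or in the fit of all 27 libraries. Diet cannot be told apart from the clock or epithelium score in cecum. In colon edgeR called 0 of 19. At an unadjusted p under 0.05 there was 1 of this list, and 2405 of the 16492 genes tested. DESeq2 and limma voom with sample quality weights called 0. Averaged over regions 1 of the 19 was called, Gpx7, which was lower, against 19.7% of all genes. For cecum minus ileum, 1 of 14 other selenoproteins and 2 of 13 insertion and delivery genes were called lower. Of the 19 genes here 1 was called higher in that contrast, against 11.4% of all genes (2.88% higher and 8.49% lower).

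**Figure D4:**
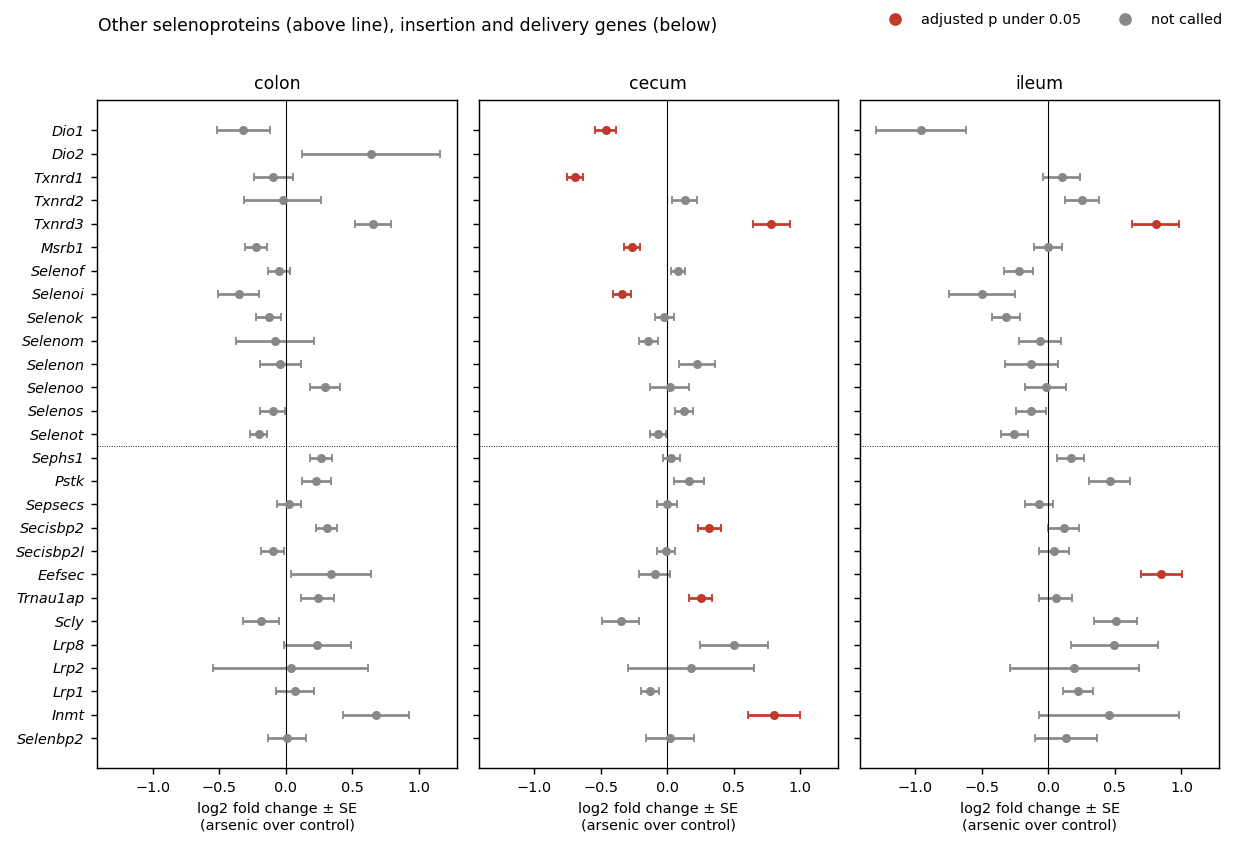
Log2 fold change of arsenic over control (points) with 1 SE on each side (whiskers) for the tested genes of other selenoproteins, above the dotted line, and of selenocysteine insertion and selenium delivery, below it. Red points had an edgeR adjusted p under 0.05; Dio2 was tested in colon alone, and Txnrd3 is at 0.66, 0.78 and 0.81 in colon, cecum and ileum.

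The same lists were compared along the gut of control mice. Of the 13 other selenoprotein genes tested, 5 were higher and 5 lower in cecum than in ileum, among them Dio1 at 1.34 ± 0.17 and Txnrd1 at 0.69 ± 0.15 (log2, edgeR adjusted p = 1.38e-05 and 0.00121). Colon had 2 of the 13 higher and 6 lower than cecum, with Dio1 at -1.10 ± 0.16 and Txnrd1 at -0.68 ± 0.14 (edgeR adjusted p = 9.15e-05 and 0.00118), so both were higher in cecum than in either neighbour. Of the 13 insertion and delivery genes, none was higher and 6 were lower in colon than in cecum. Of the 19 glutathione and thioredoxin genes, 3 were higher and 11 lower in colon than in cecum, and 5 were higher and 6 lower in cecum than in ileum. Prdx6, a peroxiredoxin that acts on phospholipid peroxides, stood at 4.41 ± 0.41 and Gpx7 at -2.24 ± 0.20 for cecum over ileum (edgeR adjusted p = 1.65e-06 and 5.44e-07). These shares are read against the 54.9% and 47.2% of all genes called in the same contrasts.

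For each member whose 6 group means spanned over 1 on the log2(CPM + 1) scale, the genes with the most similar pattern over the 6 groups were sought among 9302 genes. Likeness is the root mean square difference of the centred group means, in log2 units. Ethe1 (0.10) and Hsd3b2 (0.18) were nearest to Selenbp1, Anxa4 (0.14) and Gramd1c (0.15) to Gpx2, and Slc39a5 and Aldh1b1 (0.09 each) to Sephs2. Scoc and Cd59a (0.09 and 0.10) were nearest to Selenop, Rcn1 and Htra3 (0.05 each) to Gpx3, Usp37 and Fbp2 (0.06 each) to Gpx4, and Mcm5 and Pla2g6 (0.05 each) to Selenoh. Gpx1 and Selenow spanned less than 1.

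Some counts may be shared with copies or overlapping genes. The pseudogene Gpx4-ps2 held 18.6 to 21.8% of the counts of Gpx4 and itself combined in every library, and the Gpx4 level is uncertain. Selenbp2 matches Selenbp1 at 98.73% of aligned coding bases and held 0.227 to 3.52% of their combined counts. Ccdc152 overlaps Selenop on the opposite strand and held 0.0358 to 0.24% of their combined counts.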

How the data were processed

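Gene expression was measured in 27 libraries of poly-A RNA (NEBNext Ultra kit, 150 bp paired-end reads, per the labels' protocols). The authors deposited 1 table of raw, unnormalized counts for each Ensembl gene and library. HISAT2 2.1.0, HTSeq 0.6.0, SAMtools and DESeq2 1.6.3 are named in the submitters' processing notes. Strand setting, annotation and genome build are not given in the sources used here, and reads of a gene and of an antisense partner cannot be told apart.

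Symbols matched 52403 of 52550 identifiers. Tests used edgeR 4.0.16 in R 4.3.3: filterByExpr (minimum count 10, minimum total 15), TMM scaling and robust quasi-likelihood F-tests. Diets were compared within each region, regions within the 13 control libraries, and the averaged and interaction contrasts in 1 fit of 27 libraries. A call is an adjusted p under 0.05 (Benjamini-Hochberg, over all genes tested). SE is the log2 fold change over the root of F. CPM uses TMM factors over all 27 libraries. The procedure was also run on simulated counts of independent libraries. These held no differences in clock, cell types or shared mice, so that run cannot speak to those. Common biological coefficients of variation were 0.243 (ileum), 0.130 (cecum) and 0.245 (colon), and correlations within groups 0.979 to 0.997.

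The members and lists were chosen with earlier results of these data known. All members were tested in every comparison, and all have values given in ileum, in cecum and between regions of control mice. In the colon, averaged and interaction comparisons some members have no value in the text. List genes are named where called in a region or in the averaged contrast, but not where called in an interaction. They are also named where a count is 0 or a contrast is set beside it. The 2 nearest patterns are named for each member that spans over 1 (log2). Genes nearest in pattern had at least 10 CPM.

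The alternatives were DESeq2 1.42.0, limma 3.58.1 voom with sample quality weights, scaling by RLE or upper quartile, no filter or a filter of 1 CPM, all libraries in 1 fit, covariates (clock, epithelium and smooth muscle scores), the replicate block, each library left out, and ileum arsenic 14 and 15 left out, which had little Fabp6 (for the contrasts of the 27-library fit, chosen after seeing the data). Figures used matplotlib 3.10.9.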

Additional observations from a re-analysis of the deposited data

Results flagged for a closer look

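Of the 54 groups of library values tested for a library far from the rest, 2 had one, where chance gives about 1 in 20. Selenow was highest in ileum control 1, at 134 CPM, against 103 to 107 CPM in the other 3 control libraries. Sephs2 was highest in colon control 1, at 69.3 CPM, against 28.5 to 38.1 CPM in the other 4. The arsenic difference of Gpx1 differed between cecum and ileum in the interaction test, by -0.69 on the log2 scale. The same test called Sephs2, at -0.90.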

How the results depend on the processing

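The number of members called depended on the fit. With the clock, epithelium or smooth muscle score as a covariate, edgeR called 0, 1 and 0 members in ileum and 0, 0 and 1 in cecum, in that order. In 1 fit of all 27 libraries it called 4 in ileum, 3 higher and 1 lower, and 0 in cecum. Without ileum arsenic 14 and 15 it called 0 in ileum, 2 for the averaged effect and 1 for cecum minus ileum. DESeq2 called 2 for the averaged effect and 2 for colon minus ileum. Limma voom with sample quality weights called 8 for cecum against ileum, 3 for the averaged effect and 2 for colon minus ileum. No filter, RLE and upper-quartile scaling each gave 1 for cecum minus ileum. With 1 library left out, the range was 0 to 2 in ileum, 1 to 4 in cecum, 0 in colon, 5 to 7 for cecum against ileum, 5 to 8 for colon against cecum, 6 to 8 for colon against ileum, 1 to 2 for the averaged effect, 1 to 2 for cecum minus ileum and 0 to 2 for colon minus ileum. The epithelium covariate turned 3 called cecum values positive, Gpx1 to 0.15, Selenoi to 0.034 and Prdx6 to 0.26 (edgeR adjusted p = 0.907, 0.99 and 0.906). Of 2322 member values recomputed, 2211 kept their side of the threshold without a called value changing sign, 56 lost a call, 54 gained one and 1 reversed, and of the 1259 list gene values 177 lost a call and 2 reversed. The clock and epithelium scores did not overlap between the diets in cecum, so diet and score cannot be told apart there. The cause of these changes was not tested.

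Over all genes, edgeR called 1190 in ileum, against 2889 in the 27-library fit, 2105 with DESeq2, 2129 with voom, 0, 774 and 21 with the clock, epithelium and smooth muscle covariates, 673 without arsenic 14 and 15, and 121 to 1583 with 1 library left out. In cecum it called 3933, against 2021 in the 27-library fit and 3, 3 and 1931 with the covariates in the same order. In colon it called 107, against 493, 656 with DESeq2, 609 with voom, 0, 57 and 8 with the covariates, and 6 to 351 with 1 library left out. For colon minus cecum it called 0 (1294 at an unadjusted p under 0.05), DESeq2 25, voom 112 and the block 1. For colon minus ileum it called 399, DESeq2 704, RLE scaling 252 and edgeR without a filter 113. Upper-quartile scaling moved the median of all genes by -0.16 for cecum against ileum, 0.13 for colon against cecum and 0.16 for cecum minus ileum. It gave 3663 higher and 5859 lower, against 4800 and 4466 with TMM, for cecum against ileum, and 2448 higher and 1627 lower, against 1768 and 2165, for arsenic in cecum.

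No paired analysis was possible within a region because arsenic and control libraries share no numbers. Between regions, libraries with the same number correlated at -0.057 to 0.33 in 13 arsenic pairs, with a median of 0.176. In 11 control pairs they correlated at -0.116 to 0.238, with a median of 0.072. Libraries with different numbers had medians of -0.0425 in 52 arsenic pairs and -0.0259 in 45 control pairs. Equal numbers were thus more alike at the median, and whether they mark the same mouse is not settled. The main tests treat these libraries as independent. A replicate block gave 6 members for cecum against ileum, 7 for colon against cecum, 6 for colon against ileum, 1 for the averaged effect, 3 for cecum minus ileum, 0 for colon minus cecum and 1 for colon minus ileum. With 4 or 5 libraries a group, some differences beyond 2 SE did not pass, so a gene that was not called is not shown to be unchanged. Examples are Gpx2 in ileum at -0.65 ± 0.23 and Gpx4 in cecum at 0.17 ± 0.06 (log2).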
